A study of Homo sapiens with 4 samples.

Results

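The genes that copy DNA and open S phase were followed through osteoblast differentiation as 47 named genes of the 19610 gene symbols with mRNA values. The 47 were taken by symbol from a fixed list of DNA replication genes and of genes that the E2F transcription factors switch on at the passage from G1 to S phase, and the FPKM of all transcripts of a symbol were summed. FPKM is a read level scaled by transcript length and library size. All 47 reached the minimum of 1 FPKM in at least 1 library, as did 12859 of all symbols, and 45 of the 47 stayed at 5 FPKM or more in every library. The cells were hFOB1.19, a human fetal osteoblast line, with 1 library at day 0, labelled control, and 1 library at each of days 3, 6 and 9, labelled as undergoing mineralization. No other allele or agent separates the libraries in the labels. The cultures before differentiation were kept at the line's permissive temperature and the differentiating ones at a higher one, as the methods describe. In comparisons with day 0, temperature, time in culture and differentiation therefore cannot be told apart. Days 3, 6 and 9 share the higher temperature, and between them time in culture and differentiation cannot be told apart. The line is a single immortalised line that carries a temperature-sensitive SV40 large T antigen, which limits it as a model of a normal osteoblast's cell cycle. Where 4 levels of a gene are given in a row, they are those of days 0, 3, 6 and 9.

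Before S phase, the origin recognition complex, CDC6 and CDT1 load the MCM2 to MCM7 ring onto origins. The kinases CDC7-DBF4 and cyclin E-CDK2 then fire the origins, CDC45 and the GINS proteins turn the ring into a working helicase, and polymerases, the PCNA clamp and ligase copy the strands. Most of these genes are E2F targets, held down by the RB protein until G1 cyclins, or a viral T antigen that binds RB, release E2F.

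Promoters were read because E2F sites are a known mark of G1/S genes and CHR sites of the later G2/M genes. RefSeq windows (build GRCh38.p14) from 250 bases before to 50 bases after the annotated start were found for 43 of the 47 genes, and not for MCM4, MCM5, CCNE2 and E2F8. The E2F letters searched were TTTGGCGC, TTTCCCGC, TTTCGCGC and TTTGCCGC, and the CHR letters were TTTGAA and TTCGAA, each on both strands. Windows are shown 5′ to 3′ on the strand of the gene, from 250 bases before to 10 bases after the start, with E2F and CHR matches in capitals. The first 4 are the genes that ended more than 2-fold below day 0, and the last 3 are genes of the clamp, licensing and nucleotide groups that stood above day 0. The DBF4 window (chr7:87876243-87876502, plus strand) held no E2F match and 1 CHR match across the start. MCM6 (chr2:135876434-135876693, minus strand) held 4 E2F matches, which overlap in 2 pairs, and 1 CHR match. E2F2 (chr1:23531224-23531483, minus strand) held 1 E2F match, and ORC1 (chr1:52404414-52404673, minus strand) held no exact match to either set of letters. Near matches were not counted, so a window without a match can still hold a similar site. PCNA (chr20:5126613-5126872, minus strand), CDT1 (chr16:88803539-88803798, plus strand) and TYMS (chr18:657403-657662, plus strand) held 1 E2F match each and no CHR match.
DBF4: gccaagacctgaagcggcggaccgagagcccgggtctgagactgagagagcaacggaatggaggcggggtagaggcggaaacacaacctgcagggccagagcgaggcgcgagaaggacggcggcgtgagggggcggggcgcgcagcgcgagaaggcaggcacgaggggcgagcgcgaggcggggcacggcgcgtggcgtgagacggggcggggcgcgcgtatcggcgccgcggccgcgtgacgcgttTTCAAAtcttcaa
MCM6: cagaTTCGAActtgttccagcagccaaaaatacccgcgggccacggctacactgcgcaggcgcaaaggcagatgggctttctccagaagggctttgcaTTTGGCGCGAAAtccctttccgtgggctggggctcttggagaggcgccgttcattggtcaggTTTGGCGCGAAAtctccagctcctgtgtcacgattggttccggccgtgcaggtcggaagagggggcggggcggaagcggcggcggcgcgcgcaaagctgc
E2F2: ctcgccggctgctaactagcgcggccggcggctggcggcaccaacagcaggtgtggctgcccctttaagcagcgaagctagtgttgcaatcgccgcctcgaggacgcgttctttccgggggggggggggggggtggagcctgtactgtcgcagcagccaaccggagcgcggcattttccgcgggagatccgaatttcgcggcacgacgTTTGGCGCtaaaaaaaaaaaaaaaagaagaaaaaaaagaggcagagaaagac
ORC1: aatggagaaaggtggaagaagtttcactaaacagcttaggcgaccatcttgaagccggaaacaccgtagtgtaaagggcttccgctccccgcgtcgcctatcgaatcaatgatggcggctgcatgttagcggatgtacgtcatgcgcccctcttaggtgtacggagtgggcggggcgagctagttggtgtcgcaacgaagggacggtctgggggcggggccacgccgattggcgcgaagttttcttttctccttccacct
PCNA: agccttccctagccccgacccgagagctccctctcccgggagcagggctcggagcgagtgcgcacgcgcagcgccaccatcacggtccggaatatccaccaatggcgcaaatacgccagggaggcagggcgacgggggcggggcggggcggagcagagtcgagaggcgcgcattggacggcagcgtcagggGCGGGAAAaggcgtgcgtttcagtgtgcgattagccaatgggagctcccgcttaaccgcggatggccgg
CDT1: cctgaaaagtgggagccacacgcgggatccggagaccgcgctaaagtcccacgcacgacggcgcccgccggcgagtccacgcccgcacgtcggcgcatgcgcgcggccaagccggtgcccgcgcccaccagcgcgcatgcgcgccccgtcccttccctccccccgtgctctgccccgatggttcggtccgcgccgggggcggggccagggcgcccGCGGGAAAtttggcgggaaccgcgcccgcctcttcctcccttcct
TYMS: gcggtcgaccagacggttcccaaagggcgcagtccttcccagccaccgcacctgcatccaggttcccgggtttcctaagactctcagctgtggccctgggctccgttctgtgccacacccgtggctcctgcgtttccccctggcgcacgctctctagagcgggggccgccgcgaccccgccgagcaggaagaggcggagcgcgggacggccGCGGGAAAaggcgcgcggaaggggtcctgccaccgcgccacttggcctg

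In the 43 windows, E2F letters were found in 22 genes (51.2%), against 5.40% of the 9839 windows of genes that reached 1 FPKM and 3.31% of all 35116 windows. The list was chosen in part for genes that E2F factors switch on, so this contrast is not independent of the choice. In a list of 29 other replication genes, of which 22 had a window, E2F letters were found in 5 windows (22.7%), and CHR letters in 0 of 22. The 29 E2F matches in the 43 windows fell at 26 separate places once overlapping matches were merged. Of these matches, 19 began within the 100 bases before the start, 6 lay further upstream and 4 began at the start or after it. CHR letters were found in 3 of the 43 genes (6.98%), namely MCM6, DBF4 and RRM1, against 11.0% of the genes that reached 1 FPKM and 12 of 19 windows of a list of G2/M genes (63.2%). Of the 25 genes in that list, 19 had a window. CHR sites are a known mark of G2/M genes, so this share is not independent of the choice of list either. In that G2/M list, E2F letters were found in 1 of 19 windows (5.26%). The CCAAT box, spelled CCAAT, was found in 51.2% of the replication windows and 36.5% of those of all genes that reached 1 FPKM. The GC box, spelled GGGCGG, was found in 69.8% and 70.4%. Genes with and without E2F letters were both found among the lower ones: the median log2 ratio of day 9 to day 0 was -0.17 over the 22 genes with them, of which 2 were past 2-fold lower, and -0.08 over the 21 without, of which 2 were as well. The plot of promoter matches sets each position beside the gene's change on day 9. Of the 3 genes with CHR letters, MCM6 and DBF4 were past 2-fold lower on day 9 and RRM1 was at 0.11. Of the 40 without them, 2 were past 2-fold lower as well, and their median was -0.09. The CHR matches of MCM6 and RRM1 began at -246 and -199 bases from the start. A match is a string of letters and not a measured binding site.

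**Figure D1:**
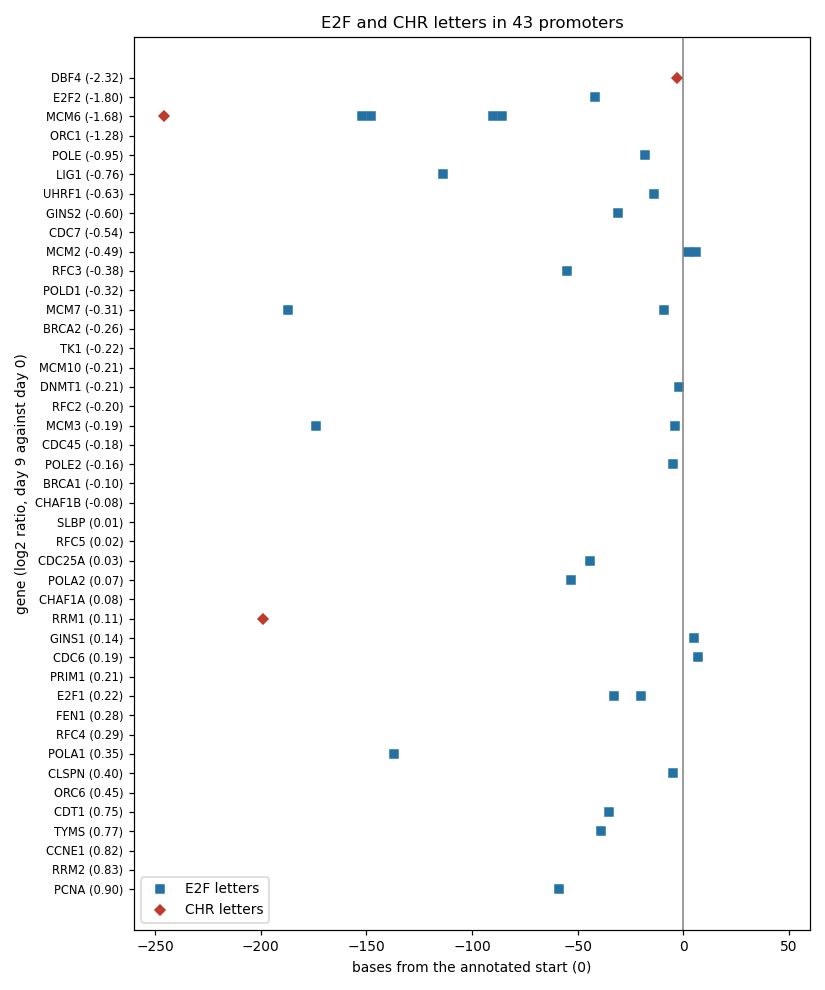
Position of E2F letters (blue squares) and CHR letters (red diamonds) in bases from the annotated start, for the 43 genes with a window, ordered by the log2 ratio of day 9 to day 0 given beside each symbol. E2F matches are spread over the whole order, from E2F2 at -1.80 to PCNA at 0.90, and most lie just before the start.

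As a group, the replication and G1/S genes were held near their day 0 level. With 1 added to each FPKM, 4 of the 47 were at least 2-fold lower than day 0 at each of the 3 later time points, and they were DBF4, E2F2, MCM6 and ORC1 each time. No member was 2-fold higher on any day with the FPKM as deposited and summed per gene. Over all 12859 symbols, 5.30% were 2-fold lower and 8.13% 2-fold higher on day 3. The shares were 6.42% and 9.01% for day 6 and 6.52% and 9.60% for day 9, so the 4 lower genes of 47 are a share near that of all genes. The median log2 ratio of the 47 was -0.14, -0.16 and -0.10 on the 3 later days, beside -0.08, -0.08 and -0.09 over all symbols. Since 1 library was made per time point, no value has a replicate check and no test was made. Each ratio to day 0 rests on the same single day 0 library, and a deviation of that library would enter all of them.

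The median FPKM of the 47 genes was 35.1, 31.6, 32.2 and 32.7, above the median of all symbols that reached the minimum, which ran from 14.2 on day 0 to 13.5 on day 9. PCNA had the highest level of the 47 in every library. The lowest level was that of CCNE1 on day 0 and that of E2F2 on every later day. In a bulk library, fewer cycling cells and less RNA of a gene per cell cannot be told apart. Of the osteoblast markers looked for, 6 of 9 reached 1 FPKM, whereas SP7, IBSP and BGLAP did not. Of 11 markers of blood, endothelial, epithelial, muscle and neural cells, only CD14 did, at 1.07, 0.398, 0.632 and 0.428 FPKM.

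**Figure D2:**
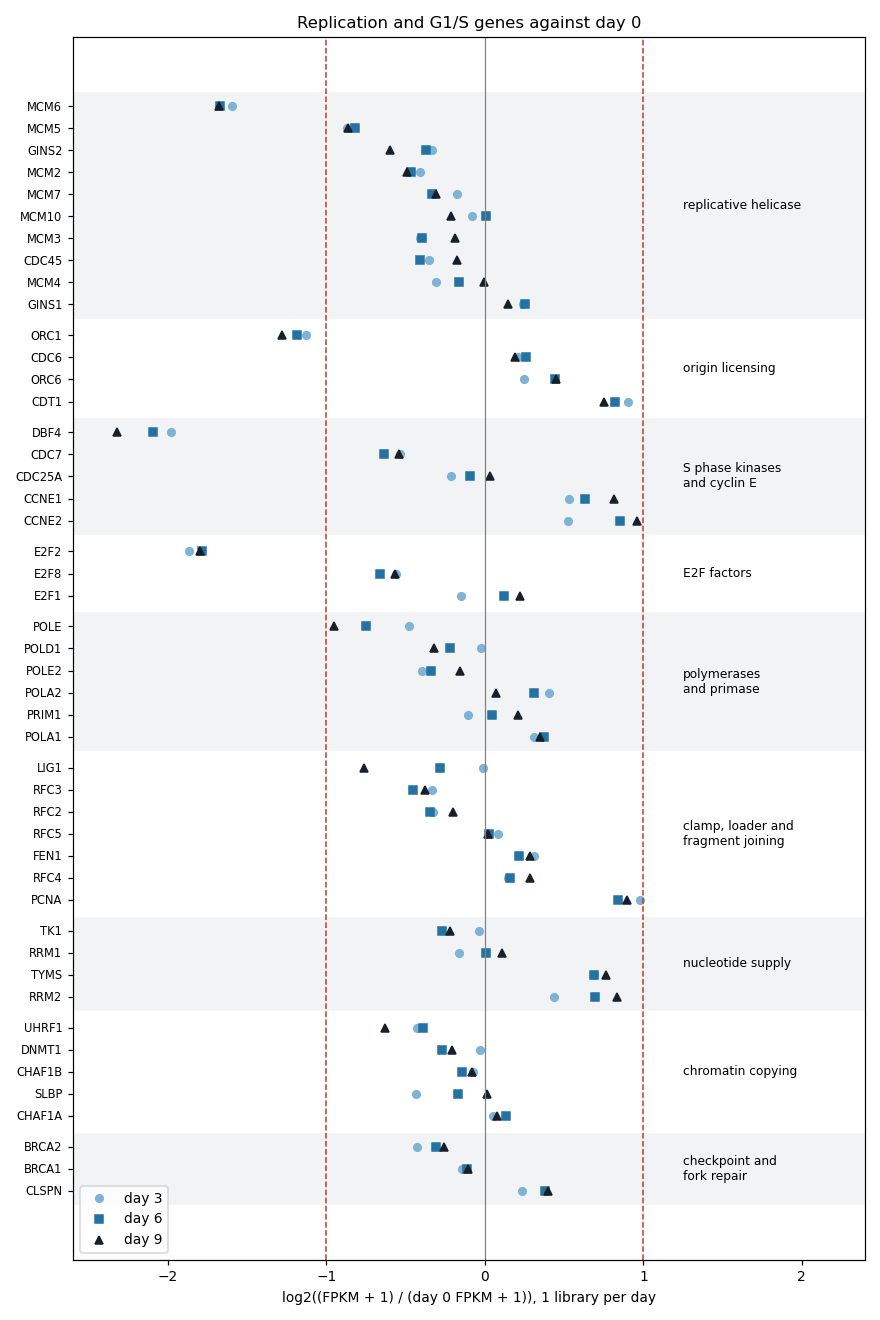
Each row is a gene, grouped by role, and the symbols give log2((FPKM + 1) / (day 0 FPKM + 1)) for the later days 3 (circles), 6 (squares) and 9 (triangles), with dashed lines at 2-fold. DBF4, E2F2, MCM6 and ORC1 lie left of the lower line on all 3 days, and the other 43 genes lie between the lines.

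Within the replicative helicase, the subunits of the MCM2 to MCM7 ring moved by unequal amounts. MCM6 (ENSG00000076003), a subunit of the ring, was measured at 28.5, 8.75, 8.27 and 8.22 FPKM, a log2 ratio of -1.60, -1.67 and -1.68. Its level on day 9 was 28.8% of day 0, and the later libraries lay close to each other and far below day 0. MCM5 was the next lowest of the ring at 80.8, 43.8, 45.3 and 44.0 FPKM, just inside the 2-fold limit with log2 ratios of -0.87, -0.82 and -0.86. MCM4, the subunit with the highest FPKM, read 86.0, 69.2, 76.8 and 85.8 FPKM, so that its day 9 value lay at its day 0 value. All 6 ring subunits had a log2 ratio below 0 on day 3, with a median of -0.41, beside 66.0% of the 47 genes and 55.1% of all symbols below 0. MCM2, MCM3 and MCM7 had day 9 ratios between -0.49 and -0.19.

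In the cell the ring holds the 6 subunits in equal number, which makes their proportions of interest. The FPKM of MCM6 was 0.395 of the median of the other 5 subunits on day 0, and 0.162, 0.153 and 0.150 of it on days 3, 6 and 9. The other 5 had a median of 72.2 FPKM on day 0 and 55.0 on day 9, so MCM6 mRNA was the least abundant of the ring in every library. Other helicase genes were GINS1, GINS2, CDC45 and MCM10. GINS1, a GINS subunit, stood at 22.9, 27.3, 27.5 and 25.4 FPKM, with a day 9 log2 ratio of 0.14, whereas its partner GINS2 had a ratio of -0.60. CDC45 and MCM10 were at -0.18 and -0.21, and the highest MCM10 transcript alone had the opposite sign, 0.14.

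Origin licensing held 1 of the genes that were lower and 3 that stood above day 0. ORC1 (ENSG00000085840), an ATPase subunit of the origin recognition complex that is degraded in S phase, was measured at 15.1 FPKM on day 0 and at 6.38, 6.09 and 5.64 on days 3, 6 and 9. Its log2 ratios were -1.13, -1.19 and -1.28, the nearest to the limit of the 4 lower genes. ORC6, the smallest ORC subunit, went the other way, at 28.2, 33.7, 38.7 and 38.9 FPKM with a log2 ratio of 0.45 on day 9. CDT1, which brings the MCM ring to the origin, read 35.9, 67.9, 64.1 and 61.1 FPKM. Its log2 ratios were 0.90, 0.82 and 0.75, all 3 later libraries standing well above day 0 but under the 2-fold limit. CDC6, the partner of CDT1 in loading, stood at 48.8, 56.7, 58.7 and 55.9 FPKM, a ratio of 0.19 on day 9. The inhibitor of CDT1, geminin (GMNN), stayed between 69.3 and 79.1 FPKM, and the FPKM ratio of CDT1 to GMNN was 0.499 on day 0 and 0.858, 0.925 and 0.781 later.

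Of the S phase kinases, DBF4 had the lowest log2 ratio of all 47 genes, except that on day 3 E2F2 was lower with a pseudocount of 0.1 (-2.32 against -2.19 for DBF4). DBF4 (ENSG00000006634) is the activating subunit of the CDC7 kinase that phosphorylates the MCM ring, and its FPKM were 19.1, 4.10, 3.70 and 3.03. The log2 ratios were -1.98, -2.10 and -2.32, and the day 9 level was 15.8% of day 0. Its catalytic partner CDC7 had ratios of -0.53, -0.64 and -0.54, which turned the FPKM ratio of CDC7 to DBF4 from 0.571 on day 0 to 1.76, 1.80 and 2.37. Thus DBF4 mRNA exceeded CDC7 mRNA on day 0 and lay below it on each later day. The day 9 sum of CDC7 rests in part on a minor transcript, ENST00000428239, at 2.41 FPKM. The highest CDC7 transcript, ENST00000234626, read 8.49, 5.98, 5.58 and 4.04 FPKM. Its share of CDC7 was 77.8% on day 0 and 56.4% on day 9.

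Cyclin E, which with CDK2 drives entry into S phase, stood above day 0. CCNE2 read 17.9, 26.2, 33.1 and 35.8 FPKM on days 0, 3, 6 and 9, with log2 ratios of 0.52, 0.85 and 0.96, the highest of the 47 on days 6 and 9. CCNE1 read 6.93, 10.5, 11.3 and 13.0 FPKM, and its ratios were 0.53, 0.63 and 0.82. Both cyclins were higher in each library than in the one before. CDC25A, the phosphatase that activates CDK2, differed little at 24.7, 21.1, 23.0 and 25.3 FPKM, and its day 9 ratio was 0.03.

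The 3 E2F factors of the list did not move as 1 group. E2F2 (ENSG00000007968), an activator E2F, was measured at 8.71 FPKM on day 0 and at 1.66, 1.81 and 1.79 on days 3, 6 and 9. Its log2 ratios were -1.87, -1.79 and -1.80, and with a pseudocount of 0.1 in place of 1 they were -2.32, -2.20 and -2.22, since 1 is large beside these levels. E2F1, the other activator, stood at 35.1, 31.5, 38.1 and 41.1 FPKM, slightly below day 0 on day 3 and above it on day 9 with a ratio of 0.22. The FPKM ratio of E2F2 to E2F1 was 0.248 on day 0 and 0.0527, 0.0475 and 0.0436 later. E2F8, a repressor that limits E2F targets late in S phase, had ratios of -0.56, -0.66 and -0.57.

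**Figure D3:**
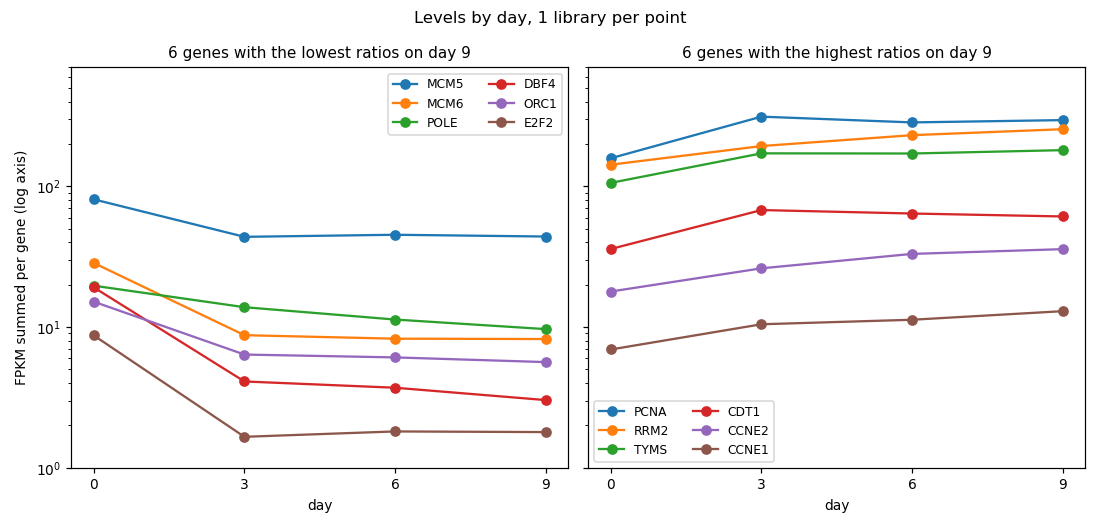
FPKM summed per gene (log axis) by day, 1 library per point, for the 6 genes with the lowest and the 6 with the highest log2 ratio on day 9. The lines of DBF4, E2F2, MCM6 and ORC1 drop between day 0 and day 3 and run nearly flat after it, POLE falls at each step, and the 6 genes on the right stand higher on all later days.

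Among the polymerases, POLE, the catalytic subunit of the leading strand polymerase, had the lowest ratio. It read 19.7, 13.8, 11.3 and 9.67 FPKM, with log2 ratios of -0.48, -0.75 and -0.95, the nearest to the lower 2-fold limit of the genes that did not reach it on day 9. Its second subunit POLE2 had a day 9 ratio of -0.16, and the FPKM ratio of POLE to POLE2 was 1.26, 1.20, 0.938 and 0.697 in turn. The genes of primer synthesis were at or above day 0 at the end. POLA1, the catalytic subunit of polymerase alpha, stood at 10.2, 12.9, 13.6 and 13.3 FPKM, a day 9 ratio of 0.35. POLA2, its second subunit, whose day 3 FPKM was the highest of this group in any library, stood at 29.1, 38.8, 36.3 and 30.6, a ratio of 0.07. PRIM1, the primase, stood at 23.2, 21.5, 24.0 and 26.9, a ratio of 0.21. POLD1, the catalytic subunit of the lagging strand polymerase, had a ratio of -0.32.

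PCNA (ENSG00000132646), the sliding clamp that tethers the polymerases, had the highest level of the 47 and had log2 ratios just under the 2-fold limit. Its FPKM were 159, 313, 285 and 296, with ratios of 0.98, 0.84 and 0.90. The day 9 level was 187% of day 0, and every later library stood far above day 0. LIG1, the ligase that seals Okazaki fragments, had the lowest day 9 ratio of this group, at 39.4, 39.0, 32.2 and 22.9 FPKM. It stayed at its day 0 level on day 3, and its day 9 ratio was -0.76. FEN1, the nuclease that trims the fragment ends for LIG1, read 66.6, 82.8, 77.6 and 81.2 FPKM, a ratio of 0.28. Of the clamp loader subunits, RFC4 stood at 55.4, 61.5, 61.9 and 67.8 FPKM, a ratio of 0.29. RFC5 stood at 29.1, 30.9, 29.6 and 29.5, a ratio of 0.02, but its highest transcript alone had a ratio of -0.50. RFC2 and RFC3 were below day 0 at -0.20 and -0.38, so no common direction was seen in the loader.

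The genes of nucleotide supply were among the most abundant. RRM2, the S phase subunit of ribonucleotide reductase, was measured at 143, 193, 231 and 255 FPKM, log2 ratios of 0.44, 0.69 and 0.83. Its partner RRM1 stayed near day 0 at 101, 90.3, 102 and 109 FPKM, a day 9 ratio of 0.11. The FPKM ratio of RRM2 to RRM1 thereby went from 1.41 on day 0 to 2.14, 2.27 and 2.33. TYMS, the thymidylate synthase, stood at 106, 172, 171 and 181 FPKM, a day 9 ratio of 0.77, with all later libraries above day 0. TK1, the salvage kinase for thymidine, stood at 157, 153, 130 and 135 FPKM, a ratio of -0.22 and the lowest of this group on day 9. RRM2B, the form of the small subunit that p53 induces and not one of the 47, read 20.6, 130, 160 and 139 FPKM, and the FPKM ratio of RRM2B to RRM2 went from 0.144 to 0.672, 0.691 and 0.547.

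The genes that copy chromatin and guard the fork all stayed within the 2-fold limit. UHRF1, which directs the maintenance methyltransferase to new DNA, stood at 87.2, 64.6, 66.2 and 56.0 FPKM. Its day 9 ratio of -0.63 was the lowest of the chromatin group on that day. CHAF1A, a subunit of the histone chaperone CAF-1, stood at 43.8, 45.4, 48.2 and 46.3 FPKM, a ratio of 0.08, which turned to -0.14 with its highest transcript alone. SLBP, which binds the stem-loop of histone mRNAs, stood at 66.6, 49.0, 59.3 and 67.3 FPKM, with its low on day 3 and its day 9 value at that of day 0. DNMT1, the maintenance methyltransferase, and CHAF1B had day 9 ratios of -0.21 and -0.08. In the checkpoint group, CLSPN, the adaptor that activates CHK1, stood at 39.2, 46.3, 51.3 and 51.9 FPKM, a ratio of 0.40. BRCA2, which protects stalled forks, stood at 16.9, 12.3, 13.5 and 14.0 FPKM, a ratio of -0.26. BRCA1 had a ratio of -0.10.

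The later libraries differed little from each other. Between days 3 and 6, 0 of the 47 genes were past 2-fold in either direction, beside 0.443% lower and 0.607% higher of all symbols, and the median log2 ratio was 0.01 with a range of -0.27 to 0.33. Between days 6 and 9, 0 were past it, beside 0.163% lower and 0.381% higher, and the median was 0.05 with a range of -0.48 for LIG1 to 0.23. Genes whose FPKM went in a single direction at every step were also counted, however small the step. MCM6, for example, went from 8.27 to 8.22 FPKM between days 6 and 9. FPKM were higher in each library than in the one before for 6 genes, namely ORC6, CCNE1, CCNE2, RFC4, RRM2 and CLSPN, beside 11.9% of all symbols. FPKM were lower at each step for 8 genes, MCM2, MCM6, GINS2, ORC1, DBF4, POLD1, POLE and LIG1, beside 13.0% of all symbols. Both shares are near those of all genes.

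The other genes of the pathway came from lists of replication, nucleotide and E2F family genes. Their counts stand beside the shares of all symbols: 5.30%, 6.42% and 6.52% lower and 8.13%, 9.01% and 9.60% higher on days 3, 6 and 9. Of 29 further replication genes, 1 was 2-fold lower on day 3 and 0 on days 6 and 9, and 1 was 2-fold higher on each day. Their median log2 ratio was -0.03 on day 9. The higher one was POLD4, the smallest subunit of polymerase delta, at 23.8, 57.0, 53.8 and 58.8 FPKM, a day 9 ratio of 1.27. The lowest on day 9 was TIPIN, of the fork protection complex, at 24.1, 9.33, 14.2 and 12.3 FPKM, a ratio of -0.91. Of 9 further nucleotide genes, RRM2B was higher on all days with a day 9 ratio of 2.70, and NME1, a nucleoside diphosphate kinase, stood at 127, 67.0, 59.9 and 60.8 FPKM with a ratio of -1.05.

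Of 16 further genes of the E2F, RB and MuvB families, 2 were 2-fold lower on days 3 and 6 and 1 on day 9, 1 was higher on each day, and their median was -0.23. E2F7, a repressor E2F and the closest relative of E2F8, read 24.8, 74.7, 72.4 and 63.6 FPKM, a day 9 ratio of 1.32. MYBL2, the B-MYB factor that joins MuvB in S phase, read 175, 86.2, 76.1 and 77.0 FPKM, a ratio of -1.17.

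The G2/M genes, which act after replication, were lower than day 0 in nearly every case. Of 25 G2/M genes, 21, 22 and 23 were 2-fold lower on the later days in turn, 0 were higher, and all 25 lay below 0 on each day. Of all symbols, 5.30%, 6.42% and 6.52% were 2-fold lower and 8.13%, 9.01% and 9.60% higher. Those below 0 were 55.1%, 54.8% and 55.1% of all symbols. This G2/M list was written with earlier results of these data known. The median log2 ratio of the 25 was -1.55, -1.70 and -1.79. The lowest on day 9 was PLK1, a mitotic kinase, at 130 FPKM on day 0 and at 8.02, 6.19 and 8.03 later, a day 9 ratio of -3.86. The highest on day 9 was CDK1, the kinase of mitotic entry, at 130, 93.2, 93.0 and 88.7 FPKM, a ratio of -0.55. With 1 library per time point the difference between the lists could not be tested.

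**Figure D4:**
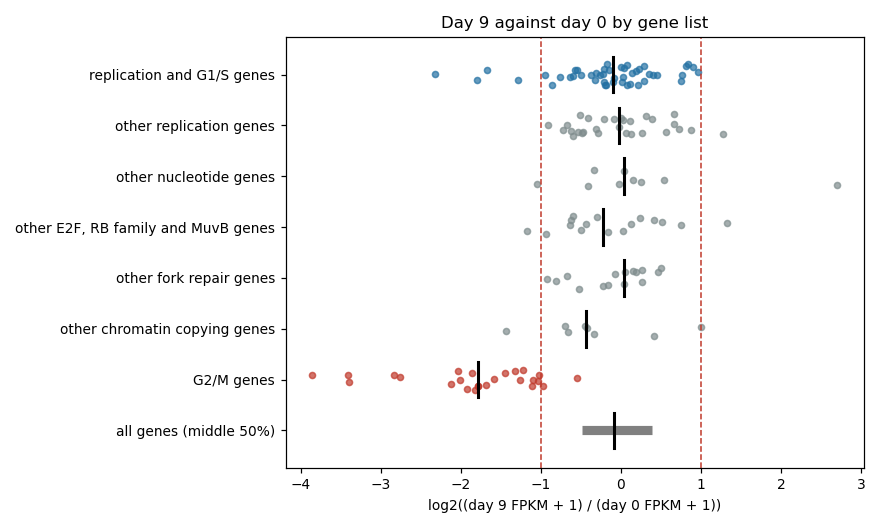
Points give log2((day 9 FPKM + 1) / (day 0 FPKM + 1)) of each gene in 7 lists, black bars the list's median, dashed lines 2-fold, and the grey bar the middle 50% of all genes. The 47 replication and G1/S genes centre on -0.10 with 4 genes left of the lower line, while the G2/M genes centre on -1.79 with 23 of 25 left of it. Of all genes, 6.52% lie left of it.

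The levels above are sums over 204 listed transcripts, and the highest transcript stayed the same in all libraries for 46 of the 47 genes, E2F8 being the exception. DBF4, MCM6 and E2F2 have 1 listed transcript each, so their sums involve no split among listed transcripts. Whether reads were shared with unlisted transcripts was not tested. In ORC1 the highest transcript held 93.1% of the sum on day 0 and 89.1% on day 9. In other genes the transcripts moved unequally, and the examples here were picked after their values were seen. The main MCM3 transcript, ENST00000229854, was at 46.1, 25.0, 25.7 and 31.1 FPKM, while a minor one, ENST00000421471, was at 1.88, 14.8, 16.0 and 19.1. The main transcript held 63.8% of MCM3 on day 0 and 49.2% on day 9. In RRM2 the minor transcript ENST00000474701 stood at 8.38, 31.7, 30.9 and 38.0 FPKM beside 119, 145, 184 and 198 for the main one, ENST00000304567. In TK1 the main transcript ENST00000301634 was nearly constant at 112, 123, 111 and 113 FPKM, and the lower sum came from minor ones such as ENST00000590862 at 28.1, 20.3, 10.5 and 10.8. In LIG1 the main transcript ENST00000263274 stood at 20.5, 18.7, 13.3 and 12.4 FPKM, and ENST00000613670 at 1.56, 8.07, 6.92 and 4.79. Transcripts of a gene share exons, so the split between them is an estimate.

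**Figure D5:**
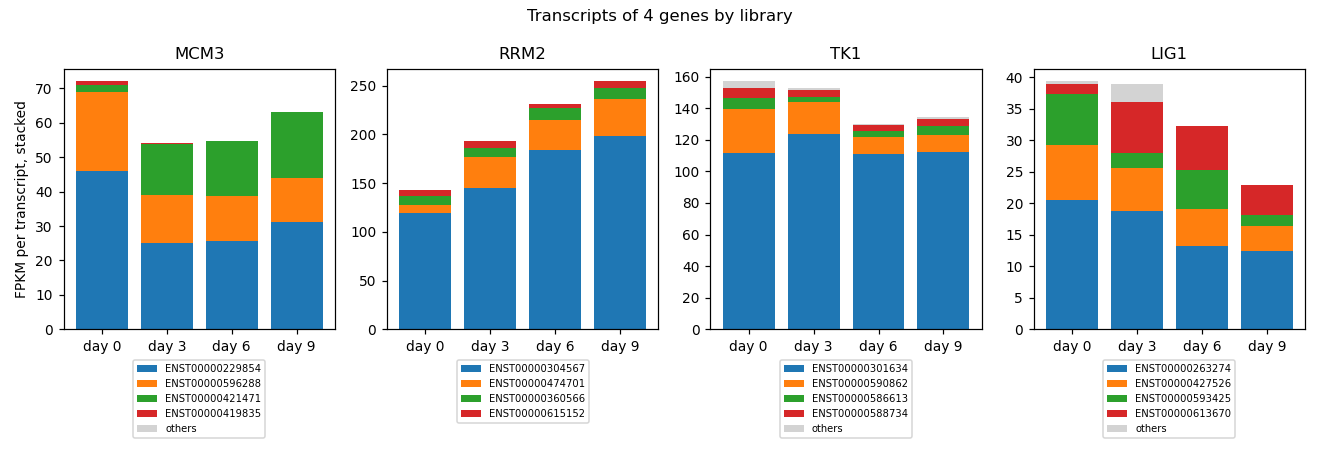
FPKM per transcript stacked for MCM3, RRM2, TK1 and LIG1, 1 bar per library, with the 4 highest transcripts of each gene in colour and the rest in grey. The third MCM3 transcript grows from 1.88 FPKM on day 0 to 19.1 on day 9 while the main one is lower, and the main TK1 transcript keeps its height.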

How the data were processed

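Total RNA of 4 hFOB1.19 libraries, 1 per time point, was depleted of ribosomal RNA and sequenced from a directional kit. RNase R, which digests linear RNA, is described by the labels as a step of the mRNA libraries and as absent from the circRNA libraries, and its effect on the mRNA levels was not tested. The authors deposited FPKM per transcript, normalised for length and library size, after alignment with Bowtie and TopHat. Neither the genome build of the mRNA table nor the program that computed its FPKM is named: both are not given in the sources used here. The submitters' processing notes list Bowtie 0.12.2 and mm8, a mouse build, with no role. FPKM carry no read counts, so no counting error was computed. The study lists a read total for each library, not used here.

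FPKM were summed per symbol for 79798 transcripts, and 17 symbols cover more than 1 gene ID. Symbols at 1 FPKM or more in any library were compared as log2 ratios after 1 was added, which understates the change of low genes, and a ratio of at least 1 or at most -1 was counted as past 2-fold. With 1 library per time point no test was made. The 47 genes, their roles, the 9 other lists (134 genes) and the limits were chosen with earlier results of these data known. Values of all 4 libraries are given for the genes with the lowest and highest day 9 ratio and the highest FPKM in each role, for those above 0 on day 9, and for the lowest and highest gene of each other list. Further genes named, such as MCM5, GMNN and the transcripts, were chosen after their values were seen. Promoter windows are from RefSeq (GRCh38.p14), the first listed per symbol. The scripts (Python 3.11.15, pandas 2.3.3, numpy 2.4.6) were tested on simulated data, with changes far past the 2-fold limit in genes well above the minimum. Calls near the limit or in low genes were not checked by it. The 9 deposited tables of the authors' comparisons, which hold fold changes and p-values, and the circRNA counts were not used.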

Additional observations from a re-analysis of the deposited data

Results flagged for a closer look

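2 noncoding RNAs that run opposite to genes of the list were read from the lncRNA table, which the comparisons above do not use, because they stood above their day 0 level on some days. TYMSOS, which lies opposite TYMS, was at 8.52, 8.49, 9.81 and 9.18 FPKM on days 0, 3, 6 and 9, a small difference with no replicate to set it against. RRM1-AS1, opposite RRM1, was at 0.514 FPKM on day 3, under the minimum of 1 FPKM set for the comparisons, and is listed at 0 in the other libraries. The libraries were directional, but whether the counting used the strand is not given in the sources used here, so reads of these RNAs and of their partner genes cannot be told apart with certainty.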

How the results depend on the processing

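No paired analysis was possible because the 4 libraries are of 4 different days. The 4 genes past 2-fold lower and the medians of the 47 were recomputed with a pseudocount of 0.1, with no minimum, with a minimum of 5 FPKM, with FPKM rescaled to the same median, and with the highest transcript only, and the medians against day 0 stayed within 0.1 of those reported. At a 4-fold limit, 0 genes were lower on day 3, 1 on day 6 and 1 on day 9 (DBF4), beside 4 at 2-fold. Over all symbols, 99 were 4-fold lower on day 3 and 681 were 2-fold lower. The 4-fold lower shares of all symbols were 0.770%, 0.925% and 1.03% on days 3, 6 and 9. The count of genes 2-fold higher, 0 as reported, became 1 on day 3 (PCNA) and 1 on day 9 (CCNE2) with rescaled FPKM. Of all symbols, 9.34% and 10.5% were higher on those days in that setting. With the highest transcript only it became 1 on day 3 (PCNA) and 1 on day 9 (CCNE1), beside 9.00% and 10.4% of all symbols. A pseudocount of 0.1 brought POLE past 2-fold lower on day 9, and the highest transcript alone brought MCM5. The lower shares of all symbols on day 9 were 9.49% and 7.23% in these 2 settings. Of 141 ratios, 43 moved by over 0.1 with the highest transcript only, 13 changed sign (in RFC5, MCM10, CHAF1A, TK1, BRCA1, SLBP and RRM1), and the largest move was 0.616. With rescaled FPKM, 7 of the 141 changed sign, and the largest move was 0.0962. The median used for rescaling was 16.7 FPKM on day 0 and 15.6, 15.7 and 15.7 on days 3, 6 and 9, so the sign of small ratios depends on the scaling. The FPKM of all symbols summed to 617857 on day 0 and to 538072, 545948 and 569922 later. Of these sums the 47 genes made up 0.353%, 0.426%, 0.422% and 0.417%. Scaling to equal sums was not tried, and it would raise the later levels against day 0, also for genes just under the 2-fold limit. Without replicates or read counts per gene, no error was computed for the ratios, and the single day 0 library enters every comparison with it.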

Other observations

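Further genes of fork repair and chromatin copying were read from 2 lists. Of all symbols, 5.30%, 6.42% and 6.52% were 2-fold lower on days 3, 6 and 9, and 8.13%, 9.01% and 9.60% were higher. Of 15 further fork repair genes, 0 were past 2-fold on any day, and their median log2 ratio was 0.04 on day 9. The lowest was BRIP1, a helicase that works with BRCA1, at 27.5, 20.0, 18.4 and 14.0 FPKM on days 0, 3, 6 and 9, a day 9 ratio of -0.92. The highest was EXO1, a nuclease of mismatch repair, at 29.6, 39.6, 41.2 and 42.4 FPKM, a ratio of 0.50. Of 8 further genes of chromatin copying, 0 were 2-fold lower on day 3 and 1 on days 6 and 9, with a median of -0.44 on day 9. That gene was CDCA7, which helps to maintain DNA methylation, at 16.1, 7.73, 7.18 and 5.31 FPKM. ASF1B, a histone chaperone of proliferating cells, stood at 53.4, 98.1, 100.2 and 107 FPKM, a ratio of 0.99.

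The reference genes were not level. Of 12 housekeeping genes, 2 were 2-fold lower on day 3, 2 on day 6 and 1 on day 9, with a median of -0.23 on day 9. Of all symbols, 5.30%, 6.42% and 6.52% were 2-fold lower on these days. ACTB, the cytoplasmic actin, had the lowest ratio at 7636, 3066, 2741 and 3081 FPKM, a log2 ratio of -1.31 on day 9, and GUSB the highest, 0.52, at 23.4, 32.0, 34.1 and 34.0 FPKM. Among the osteoblast markers, 4 were 2-fold higher on day 3, 5 on day 6 and 4 on day 9. SPP1, the bone matrix protein osteopontin, had the highest day 9 ratio, 2.24, at 0.794, 1.89, 5.14 and 7.45 FPKM. SPARC, or osteonectin, had the lowest, 0.20, at 1113, 1469, 1351 and 1275 FPKM.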
